A study of Homo sapiens with 2 samples.

Results

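HAND1/ISL1 cells are the cells in which HAND1 and ISL1 together had 0.5 or more unique molecular identifiers (UMIs) per 10000 UMIs of the cell. In addition, the primitive-streak genes had to be low in them. Of the 10023 cells deposited for both libraries, 6211 passed the limits on cell quality and 308 of these were HAND1/ISL1 cells. They were chosen by measured values: at most 7500 detected genes, at most 25% mitochondrial UMIs, at least 10000 UMIs, MIXL1, EOMES and TBXT together under 1 UMI per 10000, and CER1 and GSC together under 1 UMI per 10000. The values of these 7 genes are therefore a description of the choice and not a result.

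The cells came from the established human embryonic stem cell line H1 and were held in mTeSR1 medium with BMP4 at 50 ng/ml for 48 h before 3′ single-cell RNA sequencing. One library was labelled WT and was made from H1 itself. The other was labelled GATA3 KO and was made from 1 clone, KO-GATA3-06, of H1 cells into whose AAVS1 locus inducible Cas9 had been placed, so clone, cassette and genotype cannot be told apart. For the library labelled WT the protocol text gives 1 h of BMP4, but the title and the duration field give 48 h, which was used here. There was 1 library per label and hence no replicate and no test. Every interval given is a 95% interval that covers counting error only.

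BMP4 is a secreted signal that moves human pluripotent cells either towards the primitive streak, the source of mesoderm and endoderm, or towards extraembryonic fates that resemble amnion and trophoblast. HAND1 is a basic helix-loop-helix transcription factor of trophoblast, amnion, extraembryonic mesoderm and heart, and ISL1 is a LIM-homeodomain factor of cardiac progenitors that is also known from primate amnion. Homeobox genes of the MSX and DLX families, the AP-2 factors and GATA2 and GATA3 are turned on early by BMP signalling in non-neural ectoderm and in extraembryonic ectoderm.

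In the library labelled WT, 87 of 2173 cells within the limits were HAND1/ISL1 cells, a share of 4.0% (3.22 to 4.92, Clopper-Pearson). In the library labelled GATA3 KO, 221 of 4038 cells were chosen, a share of 5.47% (4.79 to 6.22). The share in the library labelled GATA3 KO was 1.47 percentage points higher, with bounds of -0.12 and 3.0 from the ends of both intervals. That direction rested on the streak limits. Before these limits were applied, 121 cells labelled WT (5.57%) and 223 cells labelled GATA3 KO (5.52%) reached the HAND1+ISL1 minimum, a difference of -0.0458 points (-1.78 to 1.63). The limits removed 34 of the 121 cells (28.1%, 20.3 to 37.0) but only 2 of the 223 cells (0.897%, 0.109 to 3.20). Cells over either streak limit made up 38.2% of the library labelled WT and 2.53% of the library labelled GATA3 KO. The chosen cells held 3436535 and 9833654 UMIs in all. Their median depth was 40150 UMIs and 5670 genes in the library labelled WT, and 45381 UMIs and 6251 genes in the library labelled GATA3 KO. Mitochondrial UMIs had medians of 11.2% and 9.74%. Of the cell barcodes, 8 occurred in both libraries, and 0 of these belonged to a HAND1/ISL1 cell.

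The choice cuts a continuous range and does not mark a cell type by itself. Between 0.5 and 0.75 UMIs per 10000 lay 11 of the 87 and 46 of the 221 chosen cells, while 30 and 85 other cells under the streak limits lay between 0.25 and 0.5. The lowest chosen cell had 0.523 UMIs per 10000 and the highest cell left out had 0.492 in the library labelled WT. For the label GATA3 KO these values were 0.506 and 0.499. A single UMI of HAND1 or ISL1 carried the choice in 3 and 13 cells, and 10 or more UMIs were present in 34 and 80 cells.

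HAND1 (ENSG00000113196, chromosome 5, 154474972 to 154478227 in GRCh38, minus strand, protein-coding) ran from 0 to 12.9 UMIs per 10000 in the cells labelled WT, with a median of 1.46, and from 0 to 10.7 with a median of 1.19 in the cells labelled GATA3 KO. ISL1 (ENSG00000016082, chromosome 5, 51383448 to 51394730, plus strand, protein-coding) ran from 0 to 9.72 with a median of 0.834 and from 0 to 3.13 with a median of 0.231. The ranges of both genes overlapped widely, but the median of ISL1 lay lower in the cells labelled GATA3 KO. Both genes were counted in 58 of 87 cells labelled WT (66.7%, 55.8 to 76.4) and in 126 of 221 cells labelled GATA3 KO (57.0%, 50.2 to 63.6). HAND1 alone was counted in 17 cells (19.5%, 11.8 to 29.4) and 84 cells (38.0%, 31.6 to 44.8), and ISL1 alone in 12 cells (13.8%, 7.34 to 22.9) and 11 cells (4.98%, 2.51 to 8.73). The label of these cells, extraembryonic-like, came with further markers beside HAND1 and ISL1. These are MSX1, DLX5, WNT6 and SPARCL1.

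The 250 bases before the annotated start of ISL1 and ANKRD1 are printed, since only these held a match among the promoters searched. Searched were the given markers, such as ISL1, and genes that stood among the highest in the cells in both libraries, such as ANKRD1. RefSeq promoters (GRCh38.p14) were matched for 7 of 10 such genes, and were searched on both strands. The motifs were AGATAA and TGATAA for GATA factors, the forms CAGCTG and CATCTG of the E-box of basic helix-loop-helix factors, and GGCGCC for SMAD proteins. Capitals mark every match. ISL1 lies at chr5:51383198-51383447 on the plus strand and ANKRD1 at chr10:90921088-90921337 on the minus strand, and both are written 5′ to 3′ along the gene.
ISL1: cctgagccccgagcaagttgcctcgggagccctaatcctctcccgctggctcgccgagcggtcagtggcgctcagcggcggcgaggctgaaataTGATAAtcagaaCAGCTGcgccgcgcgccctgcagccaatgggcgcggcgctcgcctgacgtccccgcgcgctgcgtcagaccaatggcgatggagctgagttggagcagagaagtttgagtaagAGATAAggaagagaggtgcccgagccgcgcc
ANKRD1: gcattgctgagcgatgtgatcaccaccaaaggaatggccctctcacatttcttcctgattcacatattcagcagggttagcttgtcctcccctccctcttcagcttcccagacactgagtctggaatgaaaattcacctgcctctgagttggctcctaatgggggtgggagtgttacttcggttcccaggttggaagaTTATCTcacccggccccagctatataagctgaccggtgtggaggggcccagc
In the ISL1 window TGATAA began 156 bases before the start. The E-box form CAGCTG began 144 bases and AGATAA 31 bases before it. In the ANKRD1 window 1 match to AGATAA lay on the opposite strand, 52 bases before the start. The windows of HAND1, MSX1, WNT6, SPARCL1 and HAPLN1 held none of the 5 motifs. Among 35116 promoter windows of the same length, 9.17% held AGATAA and 6.66% held TGATAA. The E-box forms were held by 14.0% (CAGCTG) and 12.2% (CATCTG), and GGCGCC by 16.4%. A match is a description of letters and not evidence of binding.

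The 4 markers that took no part in the choice were all higher in HAND1/ISL1 cells than in the other cells of the same library. Levels are UMIs summed over the cells of a group, per 1000000 UMIs of that group (CPM), and ratios are log2 of CPM plus 1, which understates the difference of low genes. MSX1, a homeobox target of BMP signalling (ENSG00000163132, chromosome 4, 4859665 to 4863936, plus strand), stood at 119 CPM in HAND1/ISL1 cells labelled WT against 3.90 CPM in the other cells, which gives a log2 ratio of 4.61 (4.43 to 4.79). The same MSX1 levels with the label GATA3 KO were 159 and 5.15 CPM, and their log2 ratio was 4.70 (4.60 to 4.81). WNT6, a secreted WNT ligand (ENSG00000115596, chromosome 2, 218859805 to 218874233, plus strand), had log2 ratios of 4.77 (4.52 to 5.0) and 4.74 (4.61 to 4.88). DLX5, a homeobox gene of non-neural ectoderm (ENSG00000105880, chromosome 7, 97020396 to 97024950, minus strand), had log2 ratios of 4.47 (4.22 to 4.70) and 3.89 (3.77 to 4.01). SPARCL1, which encodes a secreted matricellular protein (ENSG00000152583, chromosome 4, 87473335 to 87531061, minus strand), had log2 ratios of 3.51 (3.16 to 3.84) and 5.03 (4.90 to 5.16). None of the 8 intervals came near 0. These markers were given with the cells, with earlier results of these data known. Their height thus describes the cells and does not test the label. Markers of later amnion and trophoblast, described further on, were low or at 0.

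Per cell, MSX1 was counted in 60 of 87 cells labelled WT with a median of 0.625 UMIs per 10000 and a maximum of 5.16, and in 192 of 221 cells labelled GATA3 KO with a median of 1.39 and a maximum of 6.15. SPARCL1 was counted in 28 and 121 cells, with medians of 0 and 0.188 and maxima of 4.86 and 20.8. The cells with SPARCL1 were thus a minority of those labelled WT, and 1 cell held 18.8% of their SPARCL1 UMIs. DLX5 was counted in 52 and 179 cells. All ranges began at 0 for these 4 markers, and the 2 libraries overlapped for each of them.

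**Figure D1:**
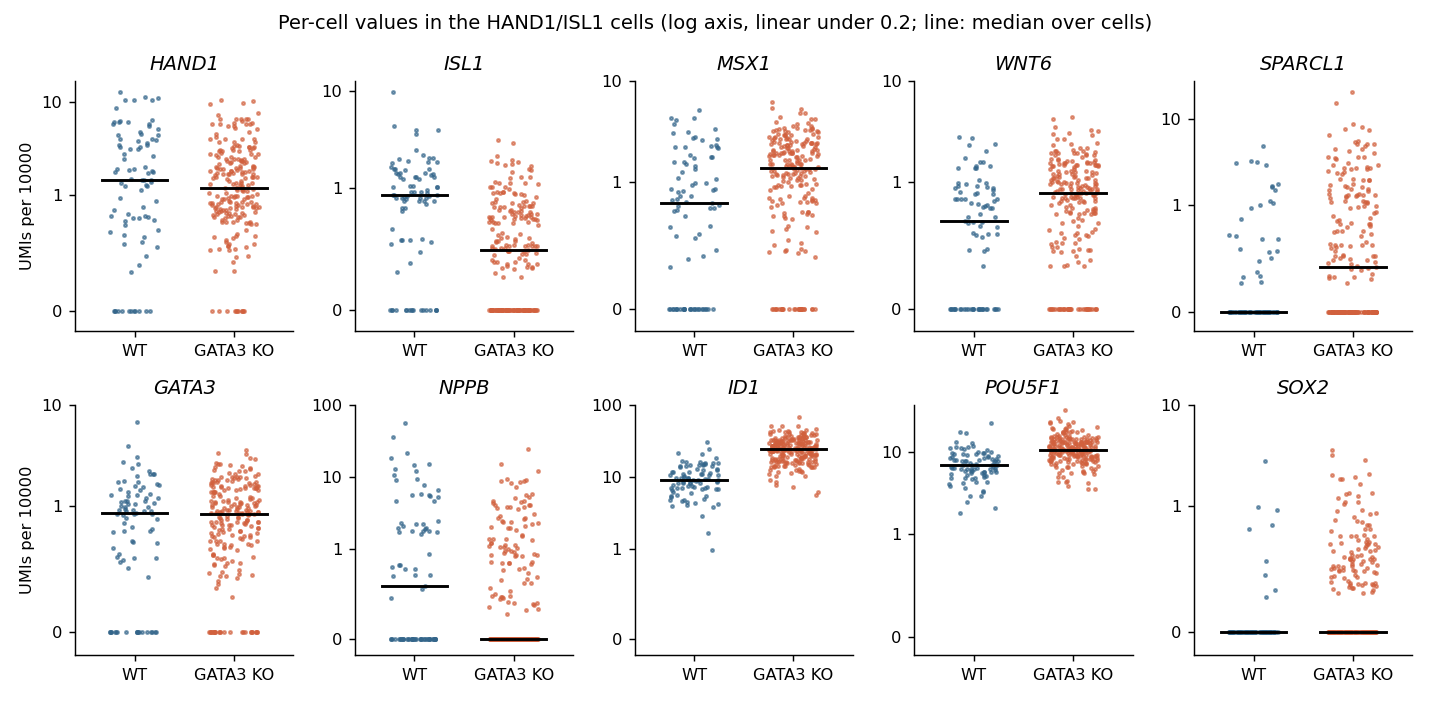
Each point is 1 HAND1/ISL1 cell, with the UMIs of the named gene per 10000 UMIs of the cell on the y axis (log scale, linear under 0.2) and the library on the x axis (87 cells labelled WT, 221 cells labelled GATA3 KO), and the black line is the median over cells. ISL1 had medians of 0.834 and 0.231 and ID1 medians of 8.93 and 24.0, while POU5F1 was counted in every cell of both libraries.

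In thinned cells, MSX1 was detected in 49.4% of the HAND1/ISL1 cells labelled WT and in 67.4% of those labelled GATA3 KO (69.0% and 86.9% before each cell was thinned at random to 10000 UMIs). As a background of free RNA, SOX2 cells were used, which had 2 or more SOX2 UMIs per 10000 and no UMI of TFAP2A, HAND1 or ISL1 (587 and 2439 cells, median depths of 46853 and 44546 UMIs). MSX1 was detected in 0.852% and 0.656% of them. Leaving out cells with a UMI of TFAP2A, HAND1 or ISL1 can make this background too low. At least 2 of the 4 markers were detected in 40 of 87 thinned HAND1/ISL1 cells labelled WT (46.0%, 35.2 to 57.0) and in 154 of 221 labelled GATA3 KO (69.7%, 63.2 to 75.7). None of the 4 was detected in 18 (20.7%, 12.8 to 30.7) and 25 (11.3%, 7.46 to 16.2) of them. In SOX2 cells 2 or more were detected in 1 of 587 and 0 of 2439 cells, which allows a share of up to 0.123% in the latter.

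For comparison, TFAP2A cells were defined as those that had 0.5 or more TFAP2A UMIs per 10000, HAND1+ISL1 under the minimum and the same streak limits (79 and 494 cells, 3.64% and 12.2% of cells, median depths of 42130 and 45200 UMIs). At least 2 of the 4 markers were detected in 5.06% (1.40 to 12.5) and 16.2% (13.1 to 19.7) of TFAP2A cells after thinning. BMP4 was detected in 77.0% and 91.4% of HAND1/ISL1 cells, in 46.8% and 60.7% of TFAP2A cells, and in 9.37% and 9.51% of SOX2 cells. GATA3 was detected in 49.4% and 57.9% of HAND1/ISL1 cells, in 27.9% and 21.7% of TFAP2A cells, and in 1.87% and 0.656% of SOX2 cells. In cells over a streak limit (830 and 102 cells), MSX1 was detected in 4.46% and 5.88% and GATA3 in 11.1% and 10.8%.

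**Figure D2:**
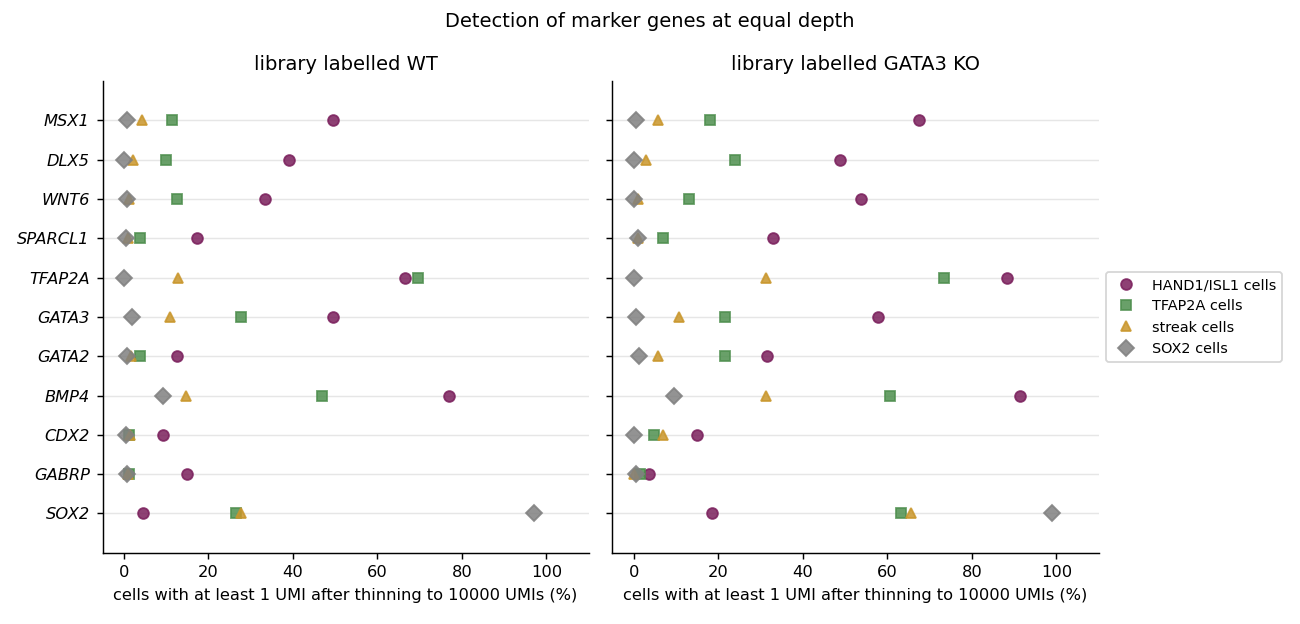
The x axis gives the percentage of cells with at least 1 UMI of the gene on the y axis after thinning each cell to 10000 UMIs, with the library labelled WT on the left and GATA3 KO on the right. HAND1/ISL1 cells (circles) lie to the right of TFAP2A cells (squares), streak cells (triangles) and SOX2 cells (diamonds) for every gene shown except TFAP2A in the library labelled WT, and SOX2, for which they lie furthest to the left. The places of SOX2 cells for SOX2 and TFAP2A, and of TFAP2A cells for TFAP2A, follow from how these cells were chosen.

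MSX1 and WNT6 were higher at each step of the HAND1+ISL1 scale in both libraries, while some other markers went up and down between bins. In the library labelled WT, MSX1 stood at 1.81 CPM in the 1190 cells under the streak limits with no UMI of HAND1 or ISL1, at 15.3 CPM in the 66 cells above 0 and under 0.5 per 10000, and at 60.2, 93.8 and 163 CPM in the cells at 0.5 to 1, 1 to 2 and 2 or more per 10000 (19, 24 and 44 cells). MSX1 in the library labelled GATA3 KO stood at 2.37, 47.1, 121, 163 and 188 CPM in the same bins (3515, 200, 73, 64 and 84 cells). For MSX1 the cells just under the minimum were thus intermediate. SPARCL1 in the library labelled WT stood at 8.73 CPM just under the minimum and at 4.72, 16.9 and 36.6 CPM above it, and DLX5 there at 23.6, 88.5 and 64.0 CPM in the 3 bins of chosen cells. BMP4 with the label GATA3 KO stood at 403, 427 and 359 CPM in those bins. SOX2, which maintains pluripotency and neural fate, went the other way, with 239, 117, 23.6, 5.27 and 3.66 CPM in the library labelled WT and 431, 235, 30.3, 31.9 and 16.4 CPM in the library labelled GATA3 KO. In the 3 bins of chosen cells labelled WT, these SOX2 levels rest on 20, 5 and 6 UMIs. Most of these UMIs lay in 1 cell of the bin at 0.5 to 1, so the fall of SOX2 among these bins rests on that cell. POU5F1, a core pluripotency factor, declined far less and was still at 644 and 995 CPM in the highest bin, against 939 and 1497 CPM in cells without HAND1 or ISL1. Median depths in the 10 bins ran from 37382.5 to 48129.5 UMIs.

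**Figure D3:**
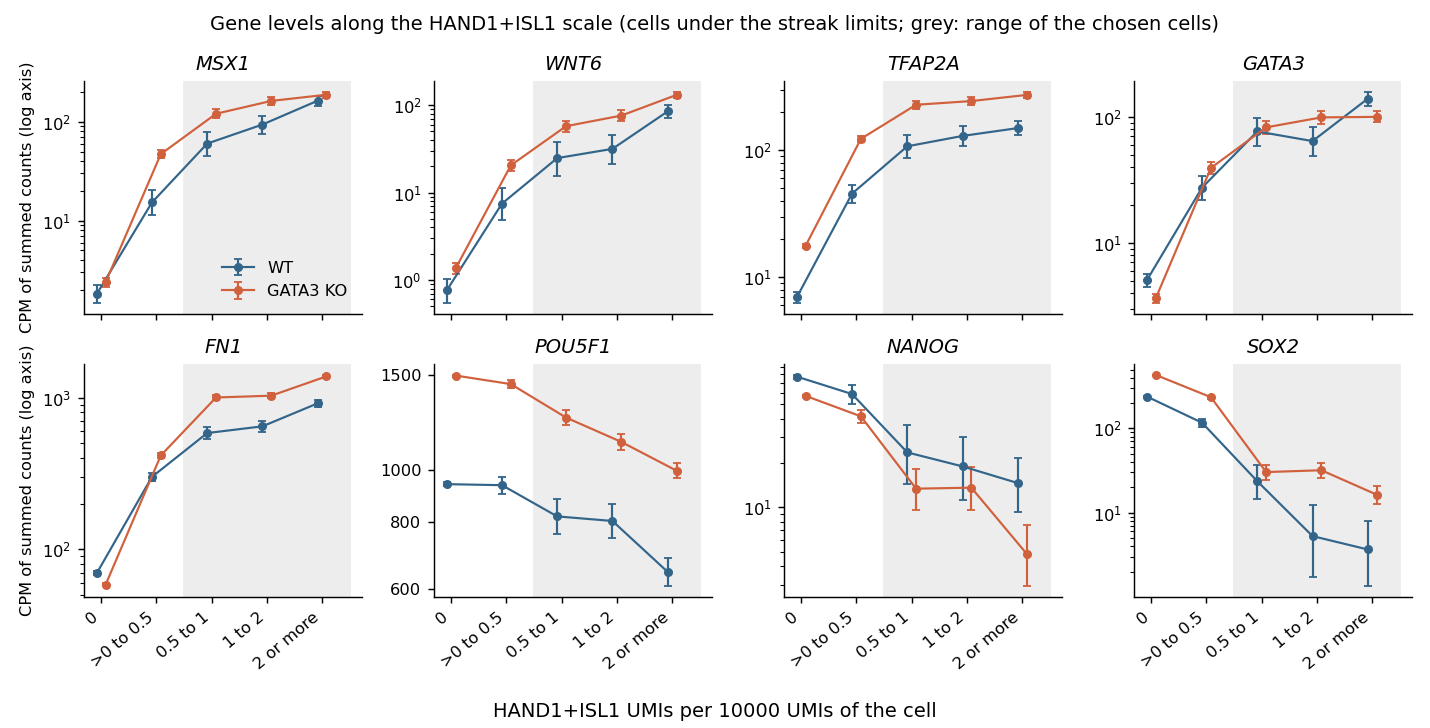
Each panel gives the CPM of 1 gene (log axis) against the HAND1+ISL1 UMIs per 10000 of the cells, in 5 bins, with the library labelled WT in blue and GATA3 KO in orange, and bars are exact Poisson 95% intervals. The grey range holds the chosen cells, in which MSX1, WNT6, TFAP2A, GATA3 and FN1 are higher and NANOG and SOX2 lower than in the bin at 0, while POU5F1 falls only from 939 to 644 CPM and from 1497 to 995 CPM.

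Across the genes that reached 20 CPM in either group, with the 7 choosing genes left out, the HAND1/ISL1 cells labelled WT were at least 2-fold higher than other cells in 265 of 5368 genes (4.94%) and at least 2-fold lower in 253 (4.71%). The HAND1/ISL1 cells labelled GATA3 KO were at least 2-fold higher in 303 of 5636 genes (5.38%) and at least 2-fold lower in 279 (4.95%). Of the higher genes 186 were shared, which is 70.2% of those in the library labelled WT and 61.4% of those in the library labelled GATA3 KO, and of the lower genes 143 were shared (56.5% and 51.3%). No gene was called higher in the library labelled WT and lower in the other, and 2 genes were called the opposite way. The median log2 ratio of all these genes was -0.13 and -0.07, so the ratios that follow are to be read against a value slightly under 0.

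The genes with the highest ratios over other cells are given next. ANKRD1, a target of the mechanosensitive regulator YAP, stood at 227 against 2.99 CPM in the library labelled WT and at 196 against 5.70 CPM in the other, and its log2 ratios were 5.84 (5.67 to 6.0) and 4.88 (4.78 to 4.98). NPPB, which encodes a natriuretic peptide, stood at 399 against 6.17 CPM and at 113 against 6.39 CPM. NPPB was uneven among cells, since it was counted in 46 of 87 and 99 of 221 cells, and 1 cell held 23.8% of the NPPB UMIs of the cells labelled WT. HAPLN1, a link protein of the hyaluronan matrix, stood at 278 against 12.2 CPM and at 234 against 9.34 CPM, and was counted in 76 of 87 and 199 of 221 cells. ACTC1, the cardiac alpha-actin, was at 1422 against 73.7 CPM and at 2929 against 277 CPM. For POSTN, a matricellular protein, log2 ratios were 3.90 (3.74 to 4.05) and 3.96 (3.87 to 4.04), and for TBX3, a T-box factor, 3.32 (3.11 to 3.53) and 4.18 (4.06 to 4.29). Among the 10 highest in the library labelled WT alone stood DIO3, which inactivates thyroid hormone (60.8 against 1.79 CPM, and 10.2 against 0.213 CPM in the library labelled GATA3 KO), TCIM (28.8 against 0.306 CPM, and 14.4 against 0.195 CPM) and C11orf96. DLX2, a homeobox gene (58.3 against 1.77 CPM, and 17.5 against 0.465 CPM in the library labelled WT), stood among the 10 highest in the library labelled GATA3 KO alone.

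SOX2, USP44 and others had the lowest ratios over other cells. SOX2 stood at 9.02 against 155 CPM in the library labelled WT and at 25.2 against 411 CPM in the other, and its log2 ratios were -3.96 (-4.45 to -3.50) and -3.97 (-4.15 to -3.80). It was counted in 9 of 87 and 108 of 221 HAND1/ISL1 cells, and 1 cell held 61.3% of the SOX2 UMIs of the cells labelled WT. USP44, a deubiquitinase, had log2 ratios of -3.88 (-4.44 to -3.35) and -4.25 (-4.55 to -3.96). ZIC2, a zinc-finger factor of neural ectoderm, had log2 ratios of -3.05 (-3.42 to -2.70) and -4.35 (-4.69 to -4.02), and SFRP1, a secreted WNT antagonist, had -2.92 (-3.29 to -2.57) and -4.83 (-5.04 to -4.63). The noncoding transcripts FOXD3-AS1 and LINC00458 and CLDN11, a claudin, stood among the 6 lowest in the library labelled WT, with log2 ratios of -3.70, -3.77 and -3.70. TTYH1 and IDO1 stood among the 6 lowest in the library labelled GATA3 KO, with -3.74 and -3.85, against -2.31 and -2.78 in the other. The values labelled WT of LINC00458, CLDN11 and ZIC2 depended on the streak limits, and without these limits were -1.58, -1.80 and -1.59.

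**Figure D4:**
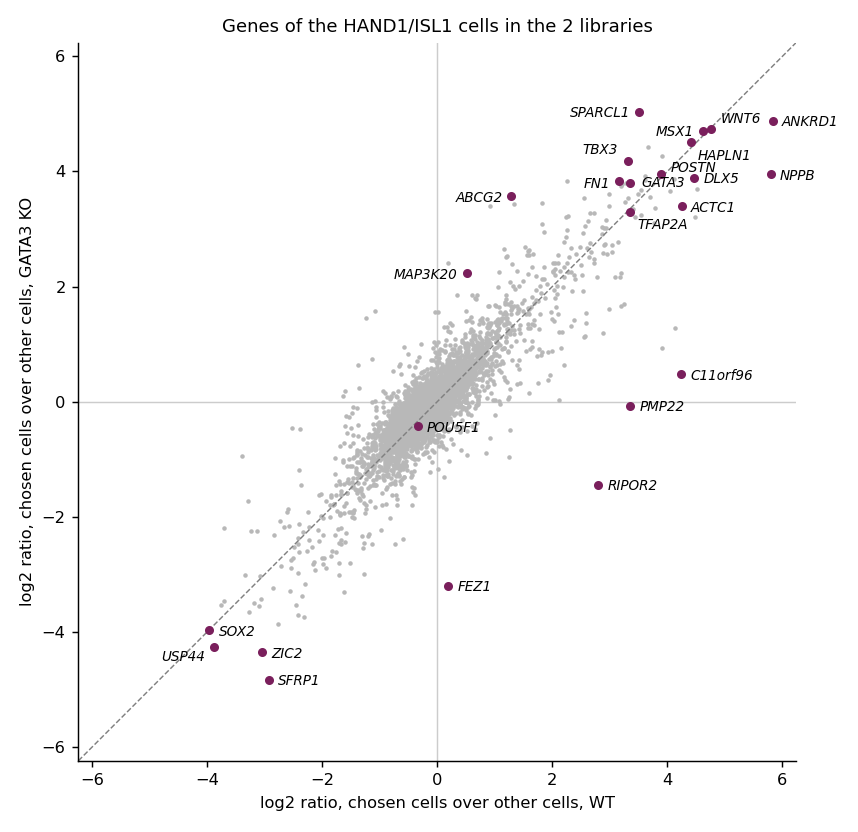
Each grey point is a gene of at least 20 CPM in HAND1/ISL1 cells or other cells of either library, with the log2 ratio of HAND1/ISL1 cells over other cells in the library labelled WT on the x axis and in the library labelled GATA3 KO on the y axis, and the dashed line marks equal ratios. MSX1 and WNT6 lie near the line at ratios of 4.61 to 4.77, SOX2 near it at about -3.96, and C11orf96, PMP22, RIPOR2 and FEZ1 lie far below it.

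Known gene groups were then described by how many members reached 20 CPM and how many of these differed 2-fold. A gene can reach that level only through the group in which it is high, so the counts describe the groups and support nothing by themselves. Of 14 amnion genes, 7 reached it in the library labelled WT and 8 in the library labelled GATA3 KO, and all of these were at least 2-fold higher in HAND1/ISL1 cells (median log2 ratios of 3.77 and 3.59). They hold BMP4, TFAP2A, MSX2, MSX1, WNT6, DLX5, SPARCL1 and, in the library labelled GATA3 KO, DLX6. TFAP2A, the AP-2 alpha factor of surface ectoderm and amnion, stood at 134 against 12.2 CPM and at 250 against 24.7 CPM. MSX2 stood at 204 against 33.7 CPM and at 228 against 26.6 CPM. Other genes of the amnion were low. GABRP, which encodes a GABA receptor subunit, was at 16.0 and 6.2 CPM and counted in 26 and 38 cells, and IGFBP3 was at 12.5 and 7.32 CPM. VTCN1, an immune checkpoint gene of later amnion, had 0 UMIs in the HAND1/ISL1 cells of both libraries, which allows levels of up to 0.873 and 0.305 CPM.

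Of 15 trophectoderm genes, 4 and 5 reached 20 CPM, and 3 and 4 of these were at least 2-fold higher (medians 2.93 and 2.76). GATA3 (ENSG00000107485, chromosome 10, 8045378 to 8075198, plus strand) stood at 103 CPM (92.8 to 115) against 9.20 CPM in the library labelled WT and at 94.3 CPM (88.3 to 100.5) against 5.88 CPM in the library labelled GATA3 KO. GATA3 UMIs lie at the 3′ end of the transcript and do not show whether its coding sequence is intact, so they do not check the label GATA3 KO. TFAP2C, the AP-2 gamma factor of trophoblast and germ cells, stood at 68.1 against 9.94 CPM and at 57.5 against 7.64 CPM. GATA2 was at 17.2 against 1.42 CPM and at 42.8 against 5.54 CPM. CDX2, the homeobox factor of trophectoderm and posterior embryo, was counted in 26 of 87 and 84 of 221 cells, at 13.7 and 18.6 CPM. CGB5, a chorionic gonadotropin gene, had 0 UMIs in both.

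Markers of other lineages were then read in the same way. The genes of nascent mesoderm and streak that the choice did not use (16 genes) summed to 97.5 CPM in the HAND1/ISL1 cells labelled WT against 657 CPM in the streak cells of the same library, and to 14.5 against 440 CPM in the library labelled GATA3 KO. In other cells as a whole they summed to 372 and 47.8 CPM. NODAL, the ligand that maintains the streak, was the highest of them at 34.3 and 3.15 CPM. No UMI of the 5 streak genes of the rule was counted in 46 of 87 HAND1/ISL1 cells labelled WT (52.9%, 41.9 to 63.7) and in 190 of 221 labelled GATA3 KO (86.0%, 80.7 to 90.3). These counts describe the choice, since the rule limits those genes. The 16 genes of lateral and extraembryonic mesoderm summed to more than in other cells, at 247 against 118 CPM and at 347 against 67.6 CPM. In each library 3 of them reached 20 CPM in either group, of which POSTN and TBX3 were at least 2-fold higher and KDR at least 2-fold lower. FOXF1, TBX20 and LUM had 0 UMIs in both libraries, and GATA6 was at 1.16 and 1.22 CPM. KDR, a receptor of early mesoderm, stood at 16.3 against 84.2 CPM and at 3.97 against 43.6 CPM. The 7 endoderm genes summed to 29.4 against 15.1 CPM in the library labelled WT and to 1.83 against 3.55 CPM in the library labelled GATA3 KO, and FOXA2 had 0 UMIs in both. SOX17, a factor of endoderm and germ cells, was the 1 gene of them at 20 CPM, in the library labelled WT, with a log2 ratio of 1.22 over other cells. It was counted in 16 of 87 cells labelled WT (18.4%, 10.9 to 28.1) and in 2 of 221 labelled GATA3 KO (0.905%, 0.110 to 3.23). The median over cells was 0 for GATA2, CDX2, GABRP and SOX17 in the library labelled WT, and for CDX2, GABRP and SOX17 in the library labelled GATA3 KO. HOX genes were low and none of 39 reached 20 CPM, but their sum was 25.03 against 1.41 CPM and 19.6 against 0.921 CPM. HOXB6 and HOXB2 were the highest of them in the library labelled WT, at 5.82 CPM each, and HOXB6 was at 0.0317 CPM in other cells there. With the label GATA3 KO it stood at 8.24 against 0.0549 CPM, and it was counted in 13 cells labelled WT and 32 labelled GATA3 KO.

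Pluripotency genes were lower as a group but not absent. Of 14 genes, 10 and 11 reached 20 CPM, and 7 and 8 were at least 2-fold lower while none was 2-fold higher (medians -1.40 and -1.94). NANOG stood at 18.0 against 77.7 CPM and at 10.1 against 58.3 CPM. TDGF1, the NODAL co-receptor, stood at 49.2 against 455 CPM and at 29.6 against 346 CPM. DNMT3B, a DNA methyltransferase, stood at 64.0 against 221 CPM and at 53.4 against 269 CPM. POU5F1 was counted in every HAND1/ISL1 cell, at 731 against 922 CPM and at 1114 against 1499 CPM, and its log2 ratios were -0.34 (-0.39 to -0.28) and -0.43 (-0.46 to -0.40).

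Epithelial transcripts were present and partly higher. Of 12 epithelial genes, all 12 reached 20 CPM, and 5 were at least 2-fold higher in each library with none 2-fold lower (medians 0.66 and 0.32). KRT18, a keratin of simple epithelium, stood at 3518 against 689 CPM and at 2653 against 696 CPM, and KRT8 at 1167 against 206 CPM and at 2075 against 400.0 CPM. EPCAM was at 644 against 274 CPM and at 656 against 272 CPM, and CDH1, the epithelial cadherin, at 134 against 85.1 CPM and at 104 against 78.5 CPM. Among 11 mesenchymal genes, FN1, the matrix protein fibronectin, stood apart at 762 against 84.5 CPM and at 1164 against 80.6 CPM. CDH2, the neural cadherin, was at 21.0 against 67.1 CPM and at 12.0 against 26.0 CPM, and VIM, vimentin, had log2 ratios of -0.06 and -0.20. Of 12 contractile genes and targets of YAP, 11 reached 20 CPM, and 10 of the 11 were at least 2-fold higher in each library (medians 2.04 and 1.88). TAGLN stood at 1020 against 277 CPM and at 1497 against 431 CPM, MYL9 at 411 against 99.1 CPM and at 907 against 260 CPM, and CTGF at 218 against 52.7 CPM and at 233 against 60.2 CPM. Of these, TPM2 was the gene under 2-fold, with log2 ratios of 0.80 and 0.74.

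In the BMP pathway the ligand gene BMP4 and several response genes were at least 2-fold higher in HAND1/ISL1 cells, while the receptors were mixed. BMP4, the gene of the ligand that had been added as protein, stood at 267 CPM (250.1 to 285) against 18.7 CPM in the library labelled WT and at 393 CPM (380 to 405) against 44.9 CPM in the library labelled GATA3 KO. Among 14 BMP response and feedback genes, 3 of 6 at 20 CPM were at least 2-fold higher in the library labelled WT and 6 of 7 in the library labelled GATA3 KO (medians 1.01 and 1.40), with none lower. TFAP2A cells shared most of this height. In the library labelled WT the 14 genes summed to 3797 CPM in HAND1/ISL1 cells, 3444 CPM in TFAP2A cells and 1770 CPM in other cells. With the label GATA3 KO these sums were 5534, 4629 and 2044 CPM. BAMBI, a pseudoreceptor that dampens BMP signals, stood at 732 against 88.3 CPM and at 449 against 67.5 CPM. ID4 and ID1, inhibitors of basic helix-loop-helix factors, had log2 ratios of 2.20 and 2.17 and of 1.11 and 1.40. The antagonist NOG was at 19.8 against 0.665 CPM and at 14.3 against 1.44 CPM. Of 14 genes of BMP ligands, receptors and SMAD proteins, 7 reached 20 CPM in each library (medians 0.25 and 0.14). In the library labelled WT, BMP4 and ACVR1 were at least 2-fold higher and ACVR2B lower, and with the label GATA3 KO, BMP4, ACVR1 and BMPR2 were higher and none lower. Among the receptors, ACVR1 stood at log2 ratios of 1.18 and 1.73, BMPR1A at 0.25 and 0.14, and ACVR2B at -1.03 and -0.51. WNT5B, a second WNT ligand beside WNT6, stood at 51.2 against 3.79 CPM and at 22.4 against 1.54 CPM, while WNT3, the ligand of the streak, was at 6.11 against 23.3 CPM and at 2.14 against 5.15 CPM.

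No cell-cycle gene at 20 CPM differed 2-fold, whereas several stress genes did. Over all genes at 20 CPM, 4.94% were at least 2-fold higher and 4.71% lower in the library labelled WT. With the label GATA3 KO these shares were 5.38% and 4.95%. In lists this short, a count of 0 lies near these shares and says little about the genes. None of 16 S-phase genes in the library labelled WT, of 17 in the library labelled GATA3 KO, or of 18 G2/M genes in each differed 2-fold (S-phase medians -0.20 and -0.16, G2/M medians -0.02 and 0.07). MKI67 stood at 49.5 against 61.0 CPM and at 102 against 106 CPM. Among 6 and 7 p53 target and arrest genes at 20 CPM, 0 and 2 were at least 2-fold higher and 0 and 1 lower, and the genes were GADD45A and GADD45B against BBC3. Of 9 and 7 immediate-early and stress genes, 4 (FOS, JUN, EGR1 and MT2A) and 2 (FOS and EGR1) were at least 2-fold higher and 2 (MT1X and MT1G) and 1 (MT1X) lower, with FOS at 40.5 against 15.8 CPM and at 56.3 against 9.95 CPM. In FGF genes, 1 of 9 and 2 of 6 were higher and 3 and 1 lower. In matrix genes, 3 of 14 and 5 of 15 were higher and 2 and 2 lower, led by FN1 and HAPLN1. Notch genes had 1 of 3 higher in each library, which was HES1. Of the WNT targets and antagonists 0 and 1 of 3 were higher and 3 and 2 lower, of the imprinted genes 1 of 5 and 2 of 6 were lower, and of the genes of retinoic acid handling 2 of 3 and 2 of 4 were lower and 0 and 1 higher. Neural and surface ectoderm genes had 1 of 2 and 3 of 3 lower, and of the primordial germ cell genes 2 of 2 (SOX17 and TFAP2C) and 1 of 1 (TFAP2C) were higher.

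HAND1/ISL1 cells were next compared with the TFAP2A cells of the same library, which share the AP-2 factor and the streak limits. Fewer genes differed than over other cells. In the library labelled WT, 91 of 5210 genes at 20 CPM were at least 2-fold higher and 101 lower, against 265 and 253 of 5368 over other cells. With the label GATA3 KO, 100 of 5462 were higher and 94 lower, against 303 and 279 of 5636. The genes that follow were named for other comparisons. MSX1 stood at 119 against 23.7 CPM and at 159 against 32.3 CPM, and its log2 ratios were 2.28 and 2.27. WNT6 had log2 ratios of 2.24 and 2.35, ANKRD1 of 2.87 and 2.34, SPARCL1 of 2.18 and 3.04, HAPLN1 of 1.88 and 1.96 and GATA3 of 1.54 and 1.45. SOX2 was lower than in TFAP2A cells, at 9.02 against 59.3 CPM and at 25.2 against 175 CPM. For MSX1, WNT6, ANKRD1, SPARCL1, HAPLN1 and GATA3 the levels were highest in HAND1/ISL1 cells, lower in TFAP2A cells and lowest in other cells, in both libraries.

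HAND1-only cells, ISL1-only cells and cells with both carried the same markers at different levels. MSX1 in the library labelled WT was at 44.9 CPM (29.6 to 65.3) in HAND1-only cells, at 115 CPM (86.6 to 150) in ISL1-only cells and at 138 CPM (124 to 154) in cells with both. The MSX1 levels labelled GATA3 KO were 127 CPM (115 to 140), 132 CPM (98.8 to 174) and 179 CPM (168 to 190). SOX2 stood at 33.2, 4.18 and 3.82 CPM in the library labelled WT and at 23.4, 20.4 and 26.6 CPM in the library labelled GATA3 KO. The HAND1-only cells labelled WT thus held less MSX1 than the cells with both, beyond counting error. Their SOX2 level was higher, but 1 cell held 61.3% of all SOX2 UMIs of the HAND1/ISL1 cells labelled WT. Of these UMIs, 20 lay in HAND1-only cells, 2 in ISL1-only cells and 9 in cells with both. That cell was therefore a HAND1-only cell, and the higher SOX2 level of the HAND1-only cells labelled WT rests on it. These subsets hold as few as 11 cells, and a gene with few UMIs can be missed, so a cell with only 1 of the 2 genes counted need not lack the other.

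The comparison of HAND1/ISL1 cells between the libraries asked how the cells that reach this state differ in a clone made to lack GATA3. At 20 CPM in either library, 203 of 5382 genes (3.77%) were at least 2-fold higher and 109 (2.03%) at least 2-fold lower in the library labelled GATA3 KO. The median log2 ratio of these genes was 0.14, and after centring on it 107 genes were higher and 163 lower, so the balance of higher and lower genes depended on the scaling. Without the limit on detected genes, 112 were higher and 96 lower. Of the 203 higher genes, 59 (29.1%) were also at least 2-fold higher among other cells (44% of the 134 such genes), and of the 109 lower genes 34 (31.2%) were also lower there (29.1% of 117).

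The marker genes were present in both libraries, and most were somewhat higher in the cells labelled GATA3 KO. Of the 14 amnion genes, 8 reached 20 CPM, of which 2 (SPARCL1 and DLX6) were at least 2-fold higher and none lower (median 0.68). MSX1, WNT6, DLX5 and TFAP2A had log2 ratios of 0.42 (0.26 to 0.58), 0.72 (0.50 to 0.95), 0.65 (0.43 to 0.86) and 0.90 (0.76 to 1.05) of the library labelled GATA3 KO over that labelled WT. SPARCL1 had the ratio furthest from 0 of the given markers, at 110.1 CPM (104 to 117) against 23.3 CPM (18.5 to 29.0) and a log2 ratio of 2.19 (1.88 to 2.53). The ratio of SPARCL1 in other cells was 0.67 (0.49 to 0.85), and the difference of 1.52 between the 2 ratios had bounds of 1.03 and 2.04. GATA3 itself differed little, with a log2 ratio of -0.13 (-0.31 to 0.05), and GATA2, a related factor, was at 42.8 against 17.2 CPM, a ratio of 1.27 (0.89 to 1.66). GATA2 was also higher among other cells, with a ratio of 1.44, so the same direction was seen outside HAND1/ISL1 cells. HAND1 differed by a log2 ratio of -0.24 and ISL1 by -1.33, at 39.4 CPM (35.5 to 43.5) against 100.4 CPM (90.1 to 112). These 2 values belong to the choice of cells and are given without weight. GABRP was at 6.2 against 16.0 CPM, and ENPEP, an aminopeptidase of trophoblast, at 5.70 against 35.5 CPM.

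The 8 genes with the highest ratio were CXCL1, ADAMTS5, SLC16A3, DNAJC15, SPARCL1, LIMCH1, FJX1 and MAP3K20. CXCL1, a chemokine, stood at 31.7 CPM (28.3 to 35.5) against 1.46 CPM (0.472 to 3.40), was counted in 87 of 221 against 5 of 87 cells, and had a log2 ratio of 3.74 (2.88 to 4.49) against 1.24 in other cells. ADAMTS5, an aggrecan-cleaving protease, had 32.0 against 4.95 CPM, and SLC16A3, a lactate transporter, 42.2 against 7.57 CPM. SLC16A3 differed little among other cells, with a log2 ratio of 0.24 (0.07 to 0.40) there against 2.33 (1.82 to 2.88) in HAND1/ISL1 cells. MAP3K20, a stress-activated kinase, had ratios of 0.09 (-0.01 to 0.19) and 1.82 (1.44 to 2.21), the latter being 1.02 without the limit on detected genes. DNAJC15, a mitochondrial co-chaperone, was counted in 213 of 221 against 32 of 87 cells, with ratios of 1.2 in other cells and 2.24 in HAND1/ISL1 cells.

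The 8 lowest were SOX17, PMP22, HAS2, TRDN, LINC01198, RIPOR2, GAL and LINC01356. SOX17 stood at 0.203 CPM (0.0246 to 0.735, 2 UMIs in 2 cells) against 25 CPM (20.0 to 30.9, 86 UMIs in 16 cells), and 1 cell held 37.2% of the UMIs of the cells labelled WT. HAS2, a hyaluronan synthase, stood at 1.42 against 47.7 CPM and was likewise lower in other cells, at 2.38 against 29.9 CPM. PMP22, a membrane protein of myelin and epithelia, stood at 1.02 against 40.5 CPM, with 22.3% of the UMIs labelled WT in 1 of the 31 cells that held it. In other cells PMP22 was low in both libraries, at 1.12 against 3.05 CPM. GAL, the neuropeptide galanin, stood at 49.5 against 576 CPM in HAND1/ISL1 cells and at 403 against 1395 CPM in other cells. NPPB was lower as well, at 113 against 399 CPM with a log2 ratio of -1.81 (-1.93 to -1.70), while in other cells the ratio was 0.04 (-0.08 to 0.17).

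The 16 cells labelled WT with SOX17 were set apart after their values had been seen. They held PRDM1, a regulator of germ-cell fate, at 18.6 CPM (8.91 to 34.2) against 0.690 CPM (0.0836 to 2.49) in the other 71 HAND1/ISL1 cells labelled WT, and NANOS3, a germ-cell gene, at 13.0 CPM (5.23 to 26.8) against 4.49 CPM (2.39 to 7.67). These rest on 10 and 7 UMIs, each in 5 of the 16 cells. Other genes of germ cells did not follow, with TFAP2C at 68.8 against 68.0 CPM, KIT at 3.72 against 4.14 CPM and DPPA3 at 0 against 0.69 CPM. The streak gene NODAL was at 55.8 CPM (37.6 to 79.6) against 30.4 CPM (24.4 to 37.4), and MESP1 at 27.9 CPM (15.6 to 46.0) against 13.5 CPM (9.57 to 18.4). MSX1 was lower in them, at 48.3 CPM (31.6 to 70.8) against 132 CPM (119 to 146), and NPPB was at 78.1 CPM (56.3 to 106) against 459 CPM (435 to 484). Of the endoderm genes, FOXA2 and HHEX had 0 UMIs in both sets, and CXCR4 had 3 UMIs in the cells with SOX17 and 0 in the others.

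ID1 and genes beside it on chromosome 20 were mostly higher with the label GATA3 KO, both in HAND1/ISL1 cells and in other cells. ID1 stood at 2519 CPM (2488 to 2551) against 961 CPM (929 to 995), and the cells ran from 5.56 to 67.6 UMIs per 10000 in the library labelled GATA3 KO and from 0.947 to 29.9 in the library labelled WT. Of the 6 genes of that neighbourhood at 20 CPM, 4 were at least 2-fold higher (ID1, TPX2, HM13 and BCL2L1, median 1.24), and 3 of 5 were so among other cells (median 1.10). HM13 and BCL2L1 had log2 ratios of 1.64 and 1.49 in HAND1/ISL1 cells. The part of this neighbourhood in the level of ID1 was not tested. ID2, ID3 and ID4, which lie on other chromosomes, had log2 ratios of 0.68, 0.25 and -0.02. Of the 7 BMP response genes at 20 CPM, 2 were higher (ID1 and FST) and none lower. Of the 11 contractile and YAP target genes 2 were higher, which were ACTC1 and MYL9 (median 0.37). Among other cells, 1 of 6 BMP response genes and 3 of 9 contractile and YAP target genes were higher, the latter with a median of 0.64. Over all genes at 20 CPM in HAND1/ISL1 cells, 3.77% were higher and 2.03% lower.

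Of the 16 streak genes outside the rule, NODAL alone reached 20 CPM in the HAND1/ISL1 cells of either library, and it was lower with the label GATA3 KO. NODAL stood at 3.15 against 34.3 CPM and was also lower in other cells, at 19.2 against 105 CPM. Of the 8 immediate-early and stress genes at 20 CPM, 2 were at least 2-fold lower and none higher. These were MT2A, a metallothionein that binds zinc and copper, and its paralog MT1X. MT2A stood at 3.66 against 45.1 CPM, and MT1X at 3.66 against 36.7 CPM. Among other cells, 2 of the 5 genes of this list at 20 CPM were at least 2-fold lower and 0 higher. Pluripotency genes had 1 of 9 at least 2-fold higher, which was SOX2, and none lower (median 0.23). SOX2 was counted in only 9 of 87 cells labelled WT, with most of its UMIs in 1 cell, and it was also higher among other cells. There 2 of 11 pluripotency genes were at least 2-fold higher and 0 lower. Of 12 epithelial genes 2, CLDN6 and CLDN4, were higher, with log2 ratios of 1.39 and 1.41, and CLDN6 was so in other cells too, at 1.56. No S-phase gene differed 2-fold, and of 18 G2/M genes 3 (CENPF, TPX2 and MKI67) were higher (medians 0.23 and 0.35). Over all genes at 20 CPM, 3.77% were higher and 2.03% lower, so the count of 0 for S phase lies near these shares. The trophectoderm genes had GATA2 higher and ENPEP lower among 6 (median 0.14). Of the WNT ligands WNT5B was lower, of the mesenchymal genes TWIST1 was higher, and of the matrix genes COL5A2 was higher.

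For some genes the difference between the libraries had opposite directions in HAND1/ISL1 cells and in other cells. RIPOR2 stood at 1.93 against 34.3 CPM in HAND1/ISL1 cells and at 6.95 against 4.08 CPM in other cells, with log2 ratios of -3.59 (-4.09 to -3.06) and 0.65 (0.51 to 0.79). C11orf96 stood at 4.37 against 49.2 CPM and at 2.86 against 1.65 CPM. FEZ1, an adaptor of kinesin transport, stood at 3.25 against 21.5 CPM in HAND1/ISL1 cells and at 38.0 against 18.7 CPM in other cells. The reverse pattern was seen for COL5A2, a fibrillar collagen, at 27.5 against 11.9 CPM and at 8.52 against 26.4 CPM, for SLC39A8, a zinc and manganese importer, at 45.8 against 18.0 CPM and at 16.1 against 43.9 CPM, for EDNRB, an endothelin receptor, at 61.9 against 30.6 CPM and at 10.8 against 26.8 CPM, and for ABCG2, an efflux transporter, at 55.6 against 38.4 CPM and at 3.77 against 15.1 CPM. The other cells of the library labelled WT included 830 streak cells of 2086, and those of the library labelled GATA3 KO 102 of 3817, and the part of this unequal makeup in the ratios of other cells was not tested. The ratios of COL5A2 and SLC39A8 in HAND1/ISL1 cells depended on the choice of cells and fell from 1.14 to 0.27 and from 1.30 to 0.78 without the streak limits.

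**Figure D5:**
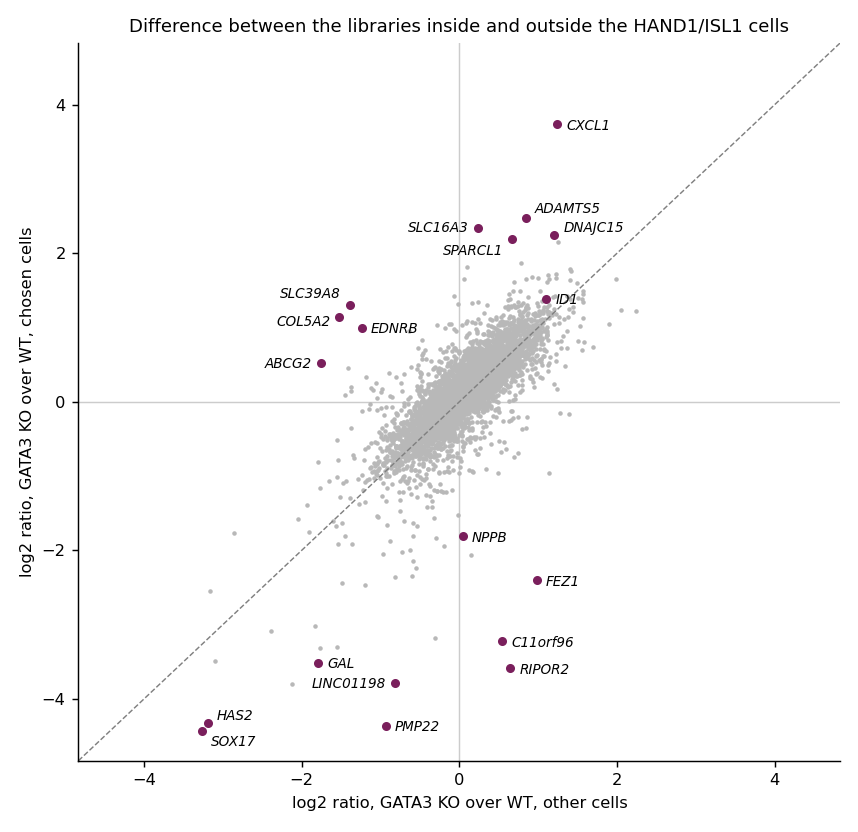
Each grey point is a gene of at least 20 CPM in the HAND1/ISL1 cells of either library, with the log2 ratio of the library labelled GATA3 KO over that labelled WT in other cells on the x axis and in HAND1/ISL1 cells on the y axis, and the dashed line marks equal ratios. CXCL1, SLC16A3 and SPARCL1 lie above the line, RIPOR2, C11orf96, FEZ1, PMP22 and NPPB lie below it, and SOX17 and HAS2 lie less far below it, at -4.43 and -4.33 on the y axis and -3.27 and -3.19 on the x axis.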

How the data were processed

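The authors deposited raw UMI counts per gene and cell barcode, made from 10x Genomics 3′ libraries with Cell Ranger (3.0.2 in the file headers) on GRCh38, without the study's limits of 7500 genes and 25% mitochondrial UMIs applied. A 3′ count samples transcript ends, and overlapping genes can share reads. The members, the gene lists and the comparisons were chosen with earlier results of these data known. Samples were grouped by their labels.

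Counts were summed over the cells of a group and scaled to CPM, with exact Poisson intervals. Shares carry Clopper-Pearson intervals, and log2 ratios (pseudocount 1 CPM) carry the exact binomial interval of the 2 counts. All are 95% intervals of counting error. They covered the true value as intended on counts simulated with counting error alone. That simulation held no differences between cells, so it does not show coverage for genes that are uneven among cells. Bounds of a difference combine the ends of both intervals. For 0 counts, a limit of 3 counts is given. Genes needed 20 CPM in either group. With 1 library per label, no test, p-value or standard error was possible, and a 2-fold ratio only sorts genes by size. Detection shares used cells thinned at random to 10000 UMIs, which left out no cell of the choice, since all had that depth. No doublet caller was run, and an alternative left out the tenth of cells with the most UMIs.

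Named were the choosing and given marker genes, the 10 highest and 6 lowest ratios over other cells per library (same direction in the mean of per-cell CPM and at a minimum of 1 per 10000), the 8 highest and 8 lowest ratios between libraries (same direction in the per-cell mean and without the gene limit), the 6 largest differences each way between that ratio in HAND1/ISL1 cells and in other cells, and from each list up to 4 of the highest genes and those past 2-fold. Mitochondrial and sex-linked marker genes were left out of rankings, and clone-named transcripts and some genes that the rule named are not reported here. Positions come from GENCODE 44 on GRCh38 by gene identifier. Python 3 with numpy, scipy and matplotlib was used. Alternatives changed the choice of cells, pseudocount, floor, averaging and centring.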

Additional observations from a re-analysis of the deposited data

Results flagged for a closer look

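The following values stood out by size and were not tested, since each label has 1 library. The log2 ratio of the library labelled GATA3 KO over that labelled WT pointed in opposite directions in HAND1/ISL1 cells and in other cells for 7 genes, with both intervals of counting error away from 0. The ratio in HAND1/ISL1 cells minus that in other cells was -4.24 (-4.88 to -3.57) for RIPOR2, -3.77 (-4.37 to -3.17) for C11orf96 and -3.39 (-3.97 to -2.79) for FEZ1. It was 2.69 (2.25 to 3.14) for SLC39A8, 2.66 (2.13 to 3.22) for COL5A2, 2.28 (1.89 to 2.67) for ABCG2 and 2.23 (1.86 to 2.62) for EDNRB. These genes were picked for this difference, and the difference was not tested. RIPOR2 was counted in 44 of 87 HAND1/ISL1 cells labelled WT and in 17 of 221 labelled GATA3 KO, so no single cell carried it, and its top cell held 9.32% of the UMIs in the former.

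Cells above 7500 detected genes were outside the choice, but some of them met the rest of it. In the library labelled WT, 77 of 1012 such cells (7.61%, 6.05 to 9.42) did so, and in the library labelled GATA3 KO 73 of 1265 (5.77%, 4.55 to 7.20). Among cells within the limits these shares were 4.0% and 5.47%. The cells above 7500 genes that met the rest of the rule would make up 47.0% and 24.8% of the HAND1/ISL1 cells if the limit were lifted. The shares of HAND1/ISL1 cells would then be 5.15% and 5.54%.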

How the results depend on the processing

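Of 101 values of shares and gene counts under the alternatives, 80 stayed within their interval or within 1.5 times, 20 moved and 1 reversed. The share labelled WT moved to 3.13% at a minimum of 1 per 10000, to 5.15% without the gene limit and to 5.57% without the streak limits, and the share labelled GATA3 KO to 3.67% at the higher minimum. The difference of shares reversed to -0.0458 points without the streak limits, which removed 34 cells labelled WT and 2 labelled GATA3 KO. That alternative also left 155 lower genes in the HAND1/ISL1 cells labelled WT. The floor changes how many genes are counted: at 5 CPM the higher and lower genes over other cells numbered 482 and 678 in the library labelled WT and 568 and 715 in the library labelled GATA3 KO, and at 50 CPM 133 and 114, and 167 and 112. Between the libraries they numbered 460 and 245 at 5 CPM and 87 and 49 at 50 CPM. Higher genes between the libraries numbered 112 without the gene limit, 115 with a pseudocount of 5 CPM and 107 after centring, and the cause of the first was not tested. Among HAND1/ISL1 cells with no UMI of the 5 streak genes, an alternative chosen after seeing the data, 284 genes were higher and 135 lower. None of 826 values of 73 named ratios reversed, but this was partly fixed in advance and says little. The genes named for the highest or lowest ratios had to keep their direction in the per-cell mean. They also had to keep it at a minimum of 1 per 10000 or without the gene limit. A changed pseudocount cannot turn a direction, and a ratio under 2-fold in the main setting was not counted as reversed. A pseudocount of 5 CPM moved 54 of the 73 out of their interval and the rule on thinned cells 51. At most 3 fell under 2-fold under any alternative, which was without the streak limits. No paired analysis was possible because each label has 1 library. Depth limits low genes: 0 UMIs allow 0.873 and 0.305 CPM in HAND1/ISL1 cells.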

Other observations

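DKK1, a secreted WNT antagonist under the floor of 20 CPM, was chosen after its values were seen. It had 93 UMIs in 24 HAND1/ISL1 cells labelled GATA3 KO (9.46 CPM, 7.63 to 11.6) and 1 UMI in those labelled WT (0.291 CPM, 0.00737 to 1.62), whereas other cells held 0.787 and 12.6 CPM. One cell labelled GATA3 KO held 28.0% of its UMIs. PEG3, an imprinted gene, had 0 UMIs in HAND1/ISL1 cells and in other cells labelled GATA3 KO, against 4.37 and 5.90 CPM in those labelled WT.

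The 34 cells labelled WT that reached the HAND1+ISL1 minimum but exceeded a streak limit were described apart. At least 2 of MSX1, DLX5, WNT6 and SPARCL1 were detected in 2 of them after thinning (5.88%, 0.721 to 19.7), against 46.0% of the HAND1/ISL1 cells labelled WT. Of all streak cells labelled WT, 0.843% (0.340 to 1.73) held 2 or more of the 4 genes.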
